A study of Drosophila melanogaster with 10 samples.

Results

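Antisense gaps were stretches of transposon consensus sequence that carried almost no antisense piRNAs although the rest of the element carried many. They were selected on antisense coverage in ovarian somatic cells (OSCs) that had received the luciferase control siRNA (siLuc). An element was included when its antisense coverage, averaged over all positions and the 3 siLuc libraries, was at least 500, and a position was a gap when its mean antisense coverage in those libraries was below 5% of that average. Of 122 elements, 26 passed, and 20618 of their 178882 positions were gaps (11.5%), out of 610009 positions in the whole table. The siLuc antisense values chose the gaps, so their low level there is a description and was not tested.

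piRNAs are small RNAs that guide Piwi proteins to transposon transcripts by base pairing, so that reads antisense to a transposon are the ones able to recognise its RNA. In somatic cells of the Drosophila ovary most of them come from flamenco, a locus on the X chromosome that is packed with transposon remnants lying mainly opposite to its direction of transcription. LTR retrotransposons, the main residents of flamenco, carry a long terminal repeat (LTR) at each end and gag and pol genes in between, and the endogenous retroviruses among them also carry env.

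The series holds 10 libraries of Argonaute-bound small RNAs from the Drosophila OSC line. The 3 siLuc and 3 siArmi libraries came from wildtype cells that received siRNA again after 48 h and were harvested at 96 h, with siArmi directed against armitage, an RNA helicase needed to make piRNAs. The 2 Gal4 and 2 Gal4-Panx-IDR libraries came from a clonal line that carried a selection cassette and 14 UAS sites, the binding sites of Gal4, upstream of the flamenco promoter in the homozygous state. These cells expressed unfused Gal4, or a fusion of Gal4 with the silencing domain (IDR) of Panoramix, a factor of piRNA-guided transcriptional silencing, and were transfected again after 48 h. Gal4-Panx-IDR cells were sorted for reduced GFP reporter signal at day 6 (replicate 1) or day 7 (replicate 2), whereas Gal4 cells were not enriched by sorting and their libraries carry no day. An effect of the sort and an effect of the tethered domain therefore cannot be told apart.

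Coverage was per nt and per 1000000 miRNA reads, computed by the authors from reads of 24 to 35 nt. From the smallest steps between values, the libraries held 87066 to 110492 miRNA reads in Gal4, 117444 to 151205 in Gal4-Panx-IDR, 586560 to 875165 in siArmi and 1297626 to 1799370 in siLuc. One read was thus worth 9.05 to 11.5 in Gal4 and 6.61 to 8.51 in Gal4-Panx-IDR, against 0.556 to 0.771 in siLuc, so that gap values in the tethering libraries often rested on few reads. In siArmi cells antisense coverage of the gaps had a median of 4.28% of siLuc over the 26 elements, beside 4.76% at the other positions.

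The gaps were very unevenly spread over the elements. All 26 had at least 1 gap position, with a median share of 4.99% of the element and a range from 0.108% in gtwin to 70.0% in Helena. HMS-Beagle2 had 3506 gap positions, ZAM 3433 and gypsy2_new 2961, and these 3 LTR elements held 48.0% of all gaps. With mdg1 (1918) and gypsy5 (1678), 5 elements held 13496 positions or 65.5%. At the other end, 7 elements had gaps in under 1% of their length, among them gypsy with 38 positions, 412 with 24 and Doc with 12. By class, gaps made up 12.3% of the 156998 positions of the 21 Ty3/gypsy-type LTR elements, 9.04% of the 12792 positions of the 4 non-LTR elements (Doc, F-element, G6 and Helena), and 1.40% of the 9092 positions of roo, which belongs to the BEL/Pao type.

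**Figure D1:**
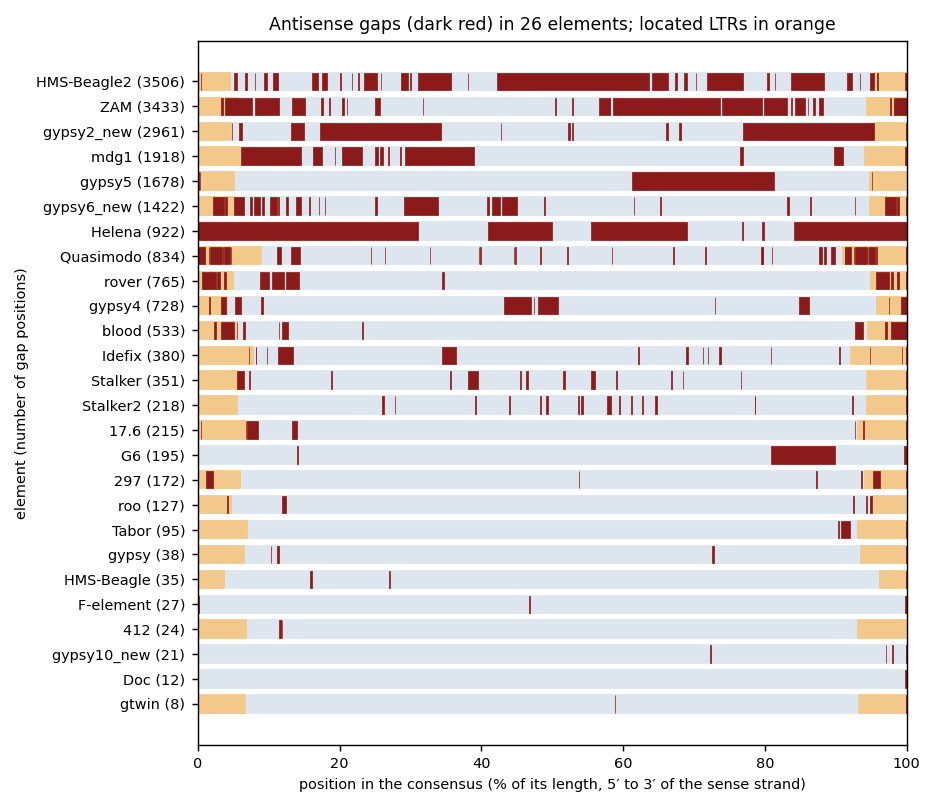
Place of the antisense gaps in the 26 elements. Each bar is a consensus drawn from 0 to 100% of its length, gaps are dark red (the shortest are widened by the line that outlines them), LTRs located from the coverage are orange, and numbers in parentheses are gap positions, from 3506 in HMS-Beagle2 to 8 in gtwin. Long blocks are seen in HMS-Beagle2, ZAM, gypsy2_new, mdg1, gypsy5 and Helena, and thin marks elsewhere.

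Elements and positions lay on both sides of the limits that defined the gaps. The weakest elements included were G6 with a siLuc average of 563.7 and ZAM with 568.4, and the strongest left out were baggins with 459.1 and flea with 452.7. Between 4% and 5% of the element average lay 925 gap positions, with a median siLuc coverage of 52.4, and between 5% and 6% lay 767 positions that were not gaps, with a median of 64.7. Most gaps were far below the limit: 16564 of them (80.3%) had less than 1% of the element average, and 1948 (9.45%) had no antisense read in any siLuc library.

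Gap positions formed 297 runs with a median length of 12 nt. Runs of 1 to 23 nt, shorter than a piRNA, numbered 196 but held only 7.24% of the gap positions. The 40 runs of at least 100 but under 500 nt held 37.6% and the 7 runs of at least 500 nt held 41.2%, so that 47 runs in 15 elements accounted for 16256 positions (78.8%). In 7 elements no run reached 24 nt. The longest run covered positions 3126 to 4716 of HMS-Beagle2 (1591 nt). It was followed by 5191 to 6764 of gypsy5 (1574 nt), 5846 to 7249 of gypsy2_new (1404 nt), 1310 to 2603 of gypsy2_new (1294 nt) and 4939 to 6213 of ZAM (1275 nt). In gypsy5 1 run therefore made up nearly the whole gap, whereas the 3506 gap positions of HMS-Beagle2 were split into 31 runs.

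**Figure D2:**
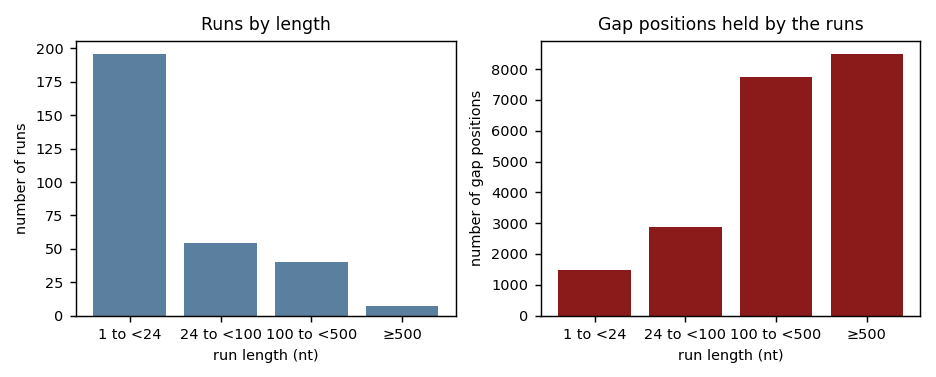
Number of gap runs (left) and number of gap positions they hold (right), by run length in nt. The 196 runs of 1 to 23 nt are the most numerous, while the 7 runs of at least 500 nt hold 8498 positions, the most of any length class.

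In mdg1, a Ty3/gypsy-type element with strong antisense piRNAs (siLuc average 4636), 4 runs of at least 100 nt lay in the first part of the consensus, at positions 459 to 1091, 1212 to 1313, 1523 to 1736 and 2186 to 2912. The first of them began just downstream of the 5′ LTR, which is 442 nt long. Their lengths were 633, 102, 214 and 727 nt, and 4 shorter runs of at least 24 nt lay at 1868 to 1899, 1924 to 1954, 5725 to 5759 and 6719 to 6813.

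The place of the gaps differed from element to element. LTRs could be located in 21 elements (266 to 659 nt long) as a start and an end stretch of equal coverage, since reads placed in both repeats were weighted 0.5 in each by the authors. Pooled, gaps took 12.5% of the LTR positions and 12.2% of the internal positions of these elements, and the medians over elements were 2.49% and 5.03%. The LTR share was higher than the internal share in 11 elements and lower in 10, with wide differences both ways. Gaps took 53.7% of the LTR and 5.57% of the internal positions in rover, 43.9% and 2.77% in blood, and 40.1% and 5.03% in Quasimodo. The elements with the most gaps had them mainly inside, with 3.86% and 51.7% in HMS-Beagle2, 1.13% and 42.8% in gypsy2_new, 2.49% and 28.7% in mdg1, and 1.63% and 22.3% in gypsy5. In ZAM the shares were 34.99% and 41.4%. Gaps in the LTRs appear at both ends by construction and are not independent. With each element cut into 10 equal parts, the share ran from 7.39% in part 6 to 14.8% in part 1. Part 1 held a gap in 26 elements and part 10 in 25, against 9 to 17 elements in the other parts. Within 24 nt of an end, where fewer reads can cover a position, lay 323 gap positions. Over the 26 elements this was a higher share of such positions than the 11.5% over whole elements.

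Most gaps held some sense reads. At least 1 siLuc library had sense coverage at 14213 gap positions (68.9%), beside 80.8% of the other positions, and 79.1% of the gaps had sense coverage in at least 1 of the 10 libraries. A total of 1020 gap positions (4.95%) were empty on both strands in all libraries. Sense coverage in siLuc was lower at the gaps than at the other positions in 18 of 26 elements and higher in 8, with medians of 1.25 and 2.02. In gypsy5 the gap level was 21.8% of that at the other positions, in HMS-Beagle2 it was 56.8% and in gypsy2_new 67.4%. In mdg1 and Tabor it was above that of the rest. Mean sense coverage at the gaps of mdg1 was 3.30 ± 0.46 (SD, n = 3) against 2.29 at its other positions, and in Tabor it was 17.5 ± 4.3 (SD, n = 3) against 2.13.

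The same positions were low in the libraries that had not chosen them. With the 5% rule applied to the element average of each group, 95.7% of the gaps were again below the limit in Gal4 cells, beside 0.295% of the other positions. In siArmi cells these shares were 95.2% and 0.845%. In Gal4-Panx-IDR cells they were 79.2% and 0.744%. Thus gaps were largely kept when piRNAs were depleted through Armitage, and less of them met the rule after tethering, a difference between groups that was not tested. In Gal4-Panx-IDR the share still below the limit was 98.2% in mdg1, 98.5% in gypsy2_new and 95.0% in HMS-Beagle2, but 48.3% in ZAM, 24.5% in gypsy4, 1.56% in Quasimodo, 19 of 127 positions in roo and 0 of 24 positions in 412, whose gaps lay just under the limit in siLuc (4.41% of the rest) and met it at 4.17% of positions in Gal4. The limit follows the element average of each group, so gaps can leave the rule without a gain in coverage. Gap coverage was lower in each Gal4-Panx-IDR library than in each Gal4 library in gypsy4 and 412, and higher in ZAM, Quasimodo and roo. Of these changes only that of roo passed the test given below. Some of these elements were already less stable in other groups. In Gal4 57.3% of the Quasimodo gaps were below the limit, and in siArmi 53.5% of the roo gaps and 54.8% of the gypsy4 gaps.

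Gal4-Panx-IDR was compared with Gal4 to ask how the gaps behaved when flamenco was silenced. Every element of the table was split into gap and other positions, each class was treated as 1 unit, and units with a mean of at least 1 were tested together with limma on log2(mean coverage + 1), with Benjamini-Hochberg adjustment at 0.05. With 2 libraries a group, an exact test of a single unit could not give a p below 0.333, so the calls lean on a spread shared across units.

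Antisense coverage of the gaps fell less than that of the rest of the element. Over the 26 elements the median ratio of Gal4-Panx-IDR to Gal4 was 0.664 at gaps and 0.364 at the other positions. At gaps 8 elements fell and 1 rose (30.8% and 3.85% of 26), beside 25.7% called lower and 5.03% called higher among all 179 units, so these shares were near the background. At the other positions 24 of the same 26 elements fell and 1 rose. The libraries of the groups did not overlap at gaps in 19 elements that were lower (73.1%) and 4 that were higher (15.4%), beside 52.5% and 16.2% of all units. Scaled to the total transposon signal instead of miRNAs, which moved the median of all units from -0.30 to 0.31 on the log2 scale, the split at gaps was 3 lower and 4 higher, the latter including roo, ZAM and gypsy5.

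The decreases at gaps were called in mdg1, in rover and in 6 elements with fewer than 100 gap positions. In mdg1 antisense coverage of the 1918 gap positions was 46.7 and 51.5 in the Gal4 libraries and 26.3 and 25.1 in the Gal4-Panx-IDR libraries, a fall by 0.91 ± 0.13 (SE) on the log2 scale (limma, adjusted p = 0.00703). At least 161 reads per library stood behind these values. In rover, an LTR element of the gypsy group, the 765 gap positions had 21.6 and 34.2 in Gal4 and 8.89 and 7.30 in Gal4-Panx-IDR, and fell by 1.64 ± 0.27 (SE, limma, adjusted p = 0.00946). In Tabor, an LTR element with 95 gap positions, coverage was 37.0 and 31.3 in Gal4 and 12.01 and 10.1 in Gal4-Panx-IDR (log2 change -1.54, limma, adjusted p = 0.00319). In all 3 the groups did not overlap, but the Gal4-Panx-IDR values of Tabor could rest on as few as 3 reads. Doc, a non-LTR element of the jockey clade, showed the largest fitted fall, by 2.34 (limma, adjusted p = 0.0252), from 56.5 and 43.0 to 4.96 and 15.6 over 12 positions. These are its outermost 4 and 8 nt, covered in some libraries by about 1 read. The remaining 4 calls were gypsy10_new, gypsy, gtwin and F-element, at -1.38, -1.22, -1.13 and -0.99, all with fewer than 40 gap positions. In a Gal4-Panx-IDR library the value of gypsy10_new could rest on less than 1 full read. Those of gtwin, F-element and gypsy could rest on as few as 1, 2 and 5 reads. After scaling to the total transposon signal only rover, Tabor and gypsy10_new kept their call, and mdg1 lost it. Without either Gal4-Panx-IDR library none of the 8 decreases was called, and without Gal4 replicate 2 there were 4.

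Only roo rose at its gaps by this test. This BEL/Pao element had 55.0 and 58.5 antisense at its 127 gap positions in Gal4 and 4170 and 5342 in Gal4-Panx-IDR, an increase of 6.35 ± 0.17 (SE) on the log2 scale (limma, adjusted p = 7.69e-05). It kept this call without each of the libraries in turn. At the other positions of roo antisense coverage rose as well, from 1254 and 1409 to 10498 and 12771, a ratio of 8.74 against 83.8 at the gaps. The roo gaps were 5 runs of 12 to 58 nt, and in each of them both Gal4-Panx-IDR libraries were above both Gal4 libraries. The run at 8401 to 8421 went from 45.4 and 175.8 in Gal4 to 14690 and 18893, and the longest one at 1079 to 1136 went from 23.8 and 19.97 to 1385 and 1814. No gap position of roo lay 35 nt or more from a covered one, the length of the longest reads.

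Whether gaps and the rest of an element changed differently was tested directly on the log2 ratio of gap to other coverage in each library. This ratio rose in 10 of the 26 elements (38.5%) and fell in 0 (limma, with 0 falls also at an unadjusted p of 0.05), beside 21.0% called higher and 0.00% called lower among all 62 elements tested. The median difference was 0.68 over the 26 elements and 0.50 over all 62. It was largest in roo (3.23), ZAM (2.62, adjusted p = 0.00251) and gypsy5 (2.19, adjusted p = 0.00614). It was also called, with limma, in Quasimodo (1.90), HMS-Beagle2 (1.81), gypsy4 (1.46), gypsy2_new (1.34), blood (1.16), 412 (0.78) and Stalker (0.70). In mdg1 it was 0.72 (adjusted p = 0.0554). Without Gal4 replicate 1 there were 4 such calls, and without Gal4 replicate 2 or Gal4-Panx-IDR replicate 1 only roo remained. Without Gal4-Panx-IDR replicate 2 there were 10, of which 9 were the same elements.

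**Figure D3:**
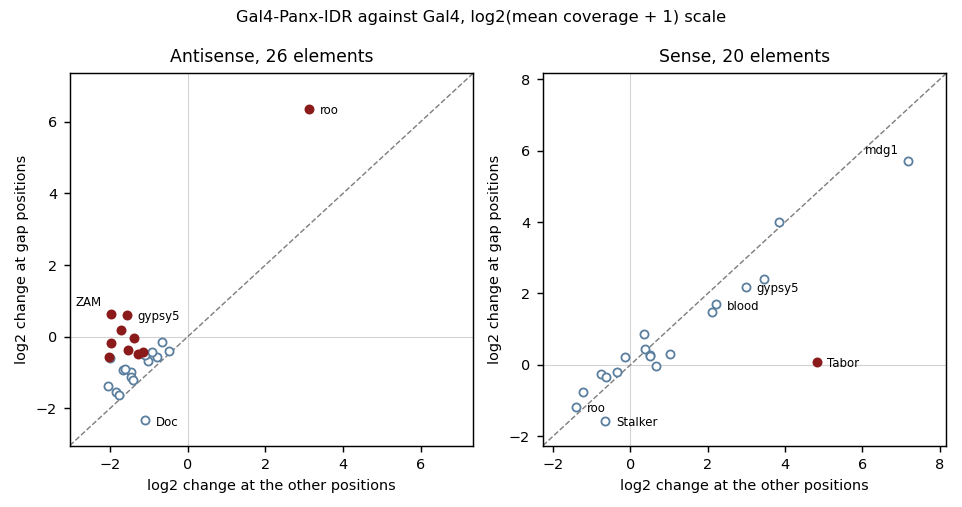
Change from Gal4 to Gal4-Panx-IDR at gap positions (y axis) against the change at the other positions of the same element (x axis), as fitted log2 changes, for antisense (26 elements) and sense coverage (20 elements with both classes tested). The dashed line marks equal change and filled points passed the test of the difference. Antisense points lie mostly above the line, with roo far up at 6.35 and Doc below it, and sense points lie on both sides of it, with Tabor (-4.73) farthest below and mdg1 (-1.47) next.

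The 5 elements with the most gaps differed in how this came about. In mdg1 the gaps fell too, as given above. In HMS-Beagle2 antisense coverage at the gaps was 4.17 and 5.80 in Gal4 and 4.75 and 3.86 in Gal4-Panx-IDR, overlapping groups, whereas its other positions had 1774 and 2547 in Gal4 and 504.4 and 574.1 in Gal4-Panx-IDR. In gypsy2_new the gaps had 3.71 and 3.79 in Gal4 and 3.61 and 3.67 in Gal4-Panx-IDR (log2 change -0.03, limma, adjusted p = 0.935). These means were under the value of 1 read and came from at least 36 and 27 reads per library over the whole gap. In ZAM, an endogenous retrovirus, the gaps had 8.77 and 13.6 in Gal4 and 16.04 and 19.4 in Gal4-Panx-IDR (log2 change 0.64 ± 0.25, SE, limma, adjusted p = 0.13). In gypsy5 they had 18.1 and 19.6 in Gal4 and 34.2 and 25.2 in Gal4-Panx-IDR (0.62 ± 0.20, SE, limma, adjusted p = 0.0761). Both were higher in each Gal4-Panx-IDR library than in each Gal4 library without passing the threshold. After scaling to the total transposon signal both passed it, ZAM at 1.27 (limma, adjusted p = 0.00815) and gypsy5 at 1.26 (limma, adjusted p = 0.0146). That total was itself lower with Gal4-Panx-IDR, at 613 and 685 against 956 and 1118 in Gal4. The scaling thus lifted all units, with their median going from -0.30 to 0.31, and these calls are no separate evidence of a rise.

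**Figure D4:**
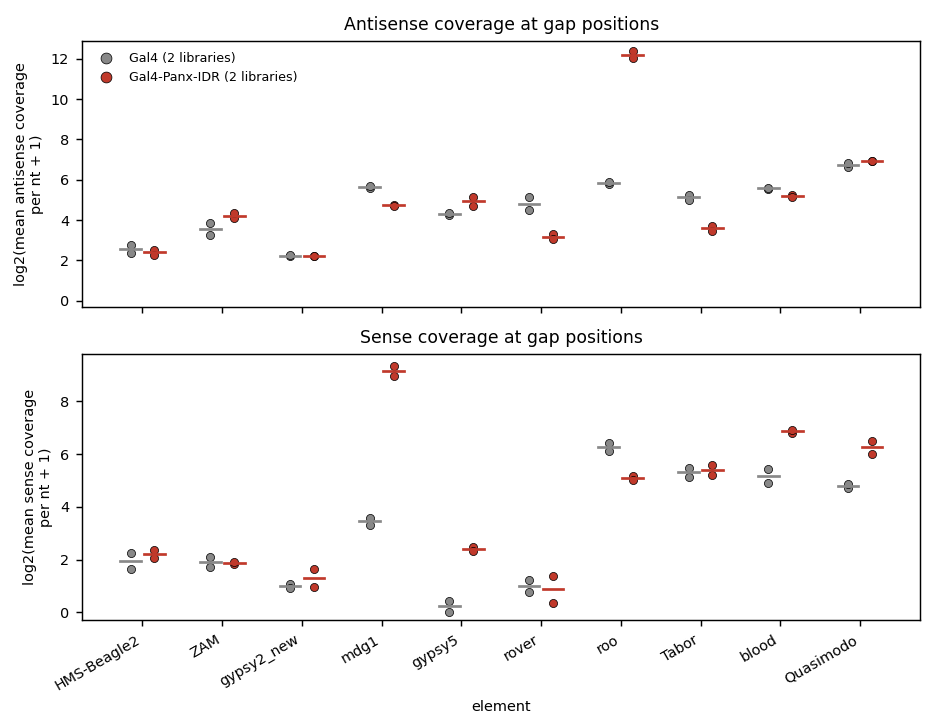
Mean coverage per nt at the gap positions of 10 elements, as log2(coverage + 1), antisense above and sense below. Each point is a library (2 Gal4 in grey, 2 Gal4-Panx-IDR in red) and each short line is the mean of a group. roo stands out with antisense values of 4170 and 5342 and mdg1 with sense values of 502 and 646.

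The largest change on the sense strand was that of mdg1. Sense coverage of its gap positions was 11.1 and 8.84 in Gal4 and 502 and 646 in Gal4-Panx-IDR, an increase of 5.71 ± 0.21 (SE) on the log2 scale (limma, adjusted p = 6.28e-06), which kept its call without each of the libraries in turn. The gain ran through all 4 long runs. At 459 to 1091 it went from 8.1 and 7.6 to 213.9 and 270.4, and at 2186 to 2912 from 6.5 and 2.9 to 832.6 and 1064. The antisense coverage of the latter run fell over the same comparison, from 52.7 and 55.2 to 32.1 and 30.3. The other positions of mdg1 gained more, from 10.0 and 5.00 to 1072 and 1284, but the difference between gaps and the rest did not pass (-1.47, limma, adjusted p = 0.131).

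**Figure D5:**
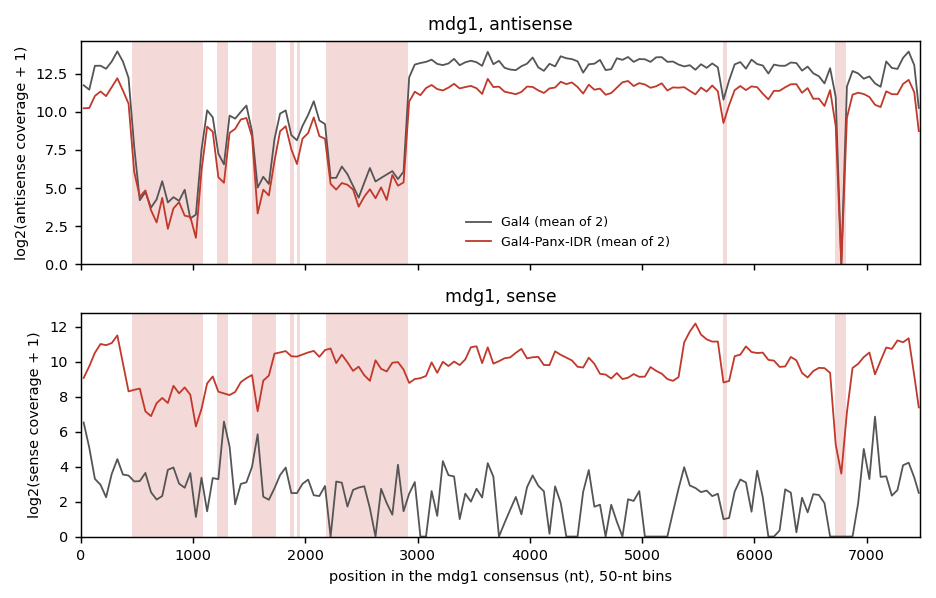
Antisense (above) and sense coverage (below) along the mdg1 consensus, as log2(coverage + 1) in 50-nt bins, for the mean of 2 Gal4 libraries (grey) and of 2 Gal4-Panx-IDR libraries (red). Shaded bands are gap runs of at least 24 nt. Antisense coverage drops inside the bands in both groups, whereas sense coverage in Gal4-Panx-IDR continues through those at 459 to 1091 and 2186 to 2912.

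On the sense strand, 21 of the 26 elements had enough coverage at their gaps to be tested. Of these 6 rose (28.6%) and 3 fell (14.3%), beside 11.4% called higher and 15.9% called lower among all 176 units. Among the rises, gypsy5 and 412 passed the filter at a mean of 1 only through the Gal4-Panx-IDR libraries. They could therefore be called only as rises, and their calls carry no weight. The gaps of gypsy2_new and gypsy10_new, which were not called, and the other positions of gypsy5 and gypsy2_new passed it in the same way. All of these units tilt the medians that follow towards a rise. The median log2 change was 0.27 at gaps, 0.51 at the other positions of the 22 elements tested there and -0.05 over all units. Scaled to the total transposon signal, which moved the last of these to 0.49, 6 rose and 1 fell. Without either Gal4-Panx-IDR library all of the sense calls at gaps were lost except those of mdg1 and 412. The filter there still used all of the tethering libraries, so the call of 412 carries no weight in these fits either.

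All 6 increases, with those of gypsy5 and 412 carrying no weight, were in LTR elements, which made up 18 of the 21 tested. In blood the gaps had 28.7 and 42.8 sense in Gal4 and 111 and 120 in Gal4-Panx-IDR (log2 change 1.69, limma, adjusted p = 0.00195), and 350 of its 533 gap positions lay in the LTRs. In Quasimodo they had 25.2 and 28.1 in Gal4 and 89.2 and 63.7 in Gal4-Panx-IDR (1.47, limma, adjusted p = 0.00328). These gaps thus carried sense reads before tethering and more after it. In gypsy5 sense reads were all but missing in Gal4, at 0.356 and 0, and reached 4.56 and 4.05 in Gal4-Panx-IDR, at least 22 reads per library. As its Gal4 level was under the filter, these values are a description. In gypsy coverage went from 1.51 and 3.93 to 19.0 and 16.4 over 38 positions, which is less than 1 full read in a Gal4 library and at least 2 reads in each Gal4-Panx-IDR library (2.40, limma, adjusted p = 0.00195). In 412 the 24 gap positions were at 0 in both Gal4 libraries and at 14.3 and 15.97 in Gal4-Panx-IDR, which can be as little as 1 read, so no fold is given.

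Sense coverage of the gaps fell in Stalker, roo and Doc, from 11.4 and 17.0 to 3.75 and 4.38 in Stalker (log2 change -1.56, limma, adjusted p = 0.00334). In roo it fell from 83.9 and 68.6 to 34.7 and 31.4 (-1.17, limma, adjusted p = 0.00494), while antisense coverage of the same positions rose. In Doc it went from 86.1 and 76.2 to 44.6 and 49.7 over 12 positions. Per Gal4-Panx-IDR library, as few as 5 reads could stand behind the values of Stalker, 13 behind those of roo and 1 behind those of Doc. After scaling to the total transposon signal only the fall in Stalker was called.

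In 1 element the sense strand of the gaps changed differently from the rest. In Tabor sense coverage of the gaps was 34.2 and 43.4 in Gal4 and 47.4 and 35.6 in Gal4-Panx-IDR, overlapping groups, while its other positions rose from 2.87 and 3.34 to 119 and 110. The difference was -4.73 ± 0.25 (SE, limma, adjusted p = 0.00249), it was called without each of the libraries in turn, and it was the only such call (5.00% of 20, beside 1.32% called lower and 0.00% called higher among 76 elements). The sense reads of the Tabor gaps lay in the runs at 6639 to 6646 and 6672 to 6755. They could be as few as 8 per library in Gal4 and 11 in Gal4-Panx-IDR. At gap positions at least 35 nt from a covered one the difference was not called. None of the 20 elements rose in this test, with 2 doing so at an unadjusted p of 0.05.

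Among the 47 runs of at least 100 nt, antisense coverage of the groups did not overlap and was lower with Gal4-Panx-IDR in 15 (31.9%) and higher in 10 (21.3%), beside 35.1% and 13.7% of 906 stretches of at least 100 nt, gap or covered, in the whole table. Sense coverage was likewise lower in 2 (4.26%) and higher in 15 (31.9%), beside 19.9% and 21.3%. The higher antisense runs included those of gypsy5 and the longest run of ZAM, from 10.2 and 12.7 to 19.4 and 22.2. The long run of HMS-Beagle2 had 4.3 and 5.2 in Gal4 and 4.8 and 2.9 in Gal4-Panx-IDR, and the groups overlapped. Runs in both LTRs of an element share their reads and count as separate runs here.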

How the data were processed

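Reads were trimmed with cutadapt by the authors, filtered to 24 to 35 nt, aligned with Bowtie to RepBase-based consensus sequences with up to 2 mismatches, and kept when they fell at 1 place or 2 places of a single consensus. The authors deposited strand-specific coverage signal per position, scaled to 1000000 miRNA reads, with antisense stored as negative values, whose size was used here. The versions used for the small RNA libraries are not given in the sources used here.

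Mean coverage over gap and other positions was computed for each element and library (Python 3.11.15, numpy 2.4.6, pandas 2.3.3, matplotlib 3.10.9) and compared with limma 3.58.1 in R 4.3.3, with a pseudocount of 1, a trend on the level, and a filter at a mean of 1. No count model was used, since coverage is not a count. Minimum read numbers divide the summed coverage by that of a read of 35 nt and cover counting error only. Nothing in the labels says that the libraries of a group came from separate cultures, so p-values measure the spread between these libraries. The tethering libraries had another 3′ adaptor than the siRNA libraries.

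Elements named were the 5 with the most gap positions, those with the 5 longest runs, mdg1, and in each test the 3 largest falls and rises past the threshold with separate groups. blood, Quasimodo and gypsy4, and the others given only in lists, were chosen after their values were seen. Elements, gaps, lists and tests were chosen with earlier results of these data known. The alternatives were other pseudocounts, filters, gap and element limits, scaling to total transposon signal, limma without the trend and each library left out.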

Additional observations from a re-analysis of the deposited data

How the results depend on the processing

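The number of gap positions stayed between 17841 and 26931 with limits of 2% and 10% or elements of at least 250, between 20560 and 20693 without each siLuc library, and was 11816 in elements of at least 1000. Antisense falls, 8 in the test as reported, numbered 15 among units with a mean of at least 5, 3 after scaling to the total transposon signal, 5 without the trend, 5 at the 2% limit and 16 at the 10% limit. Antisense rises numbered 3 with a mean of at least 5 and 4 after that scaling. Sense falls numbered 1 after that scaling and 1 at the 2% limit. With a pseudocount of 10 the antisense ratio of gap to rest was called in 18 elements and the sense ratio in 3. Gap positions at least 35 nt from a covered one, an alternative chosen after seeing the data, numbered 13481 in 17 elements. There the antisense fall was called in 1 element (mdg1) and a rise in 1 (gypsy5, 0.71, adjusted p = 0.049), the sense fall and the sense ratio in 0, and 8 elements kept or gained the antisense ratio, 7 of them among the 10. The cause of these shifts was not tested. Without each library in turn, antisense falls ranged from 0 to 7, antisense rises stayed at 1, sense falls ranged from 0 to 3, sense rises from 2 to 7, and calls of the ratio from 1 to 10 (antisense) and from 1 to 2 (sense). These fits assume that a lone library varies like the other group. Over the values of single named elements and all settings, 480 kept their side of the threshold, 65 lost the call and 19 gained it, and none changed sign while called.

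No paired analysis was possible because the Gal4-Panx-IDR labels carry days and not replicate numbers, and siArmi was not tested against siLuc. Depth limits the tethering libraries most, where many gap values rest on a few reads.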
